A study of Mus musculus with 17 samples.

Results

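Fatty acid oxidation and its regulation by PPAR alpha were examined through 40 genes, chosen by name from the 48440 gene rows of the deposited expression table. Every one of the 40 was found and passed the filter on low values, which 14588 genes passed in all. They fall into 6 compartments: 4 genes of the carnitine shuttle, 11 of the mitochondrial beta-oxidation spiral, 3 of the electron transfer flavoprotein system, 10 of peroxisomal beta-oxidation, 5 acyl-CoA thioesterases and 7 regulators and other PPAR alpha response genes. Polyadenylated liver RNA came from 3 groups of mice: wild type B6 mice of 2 months (6 libraries, called young wild type), wild type B6 mice of 2 years (5 libraries, called old wild type) and miR-29 transgenic mice of 2 months (6 libraries, called transgenic). B6 is a common inbred laboratory strain, and miR-29 is a family of microRNAs that lower messages carrying a match to their seed. The promoter of the transgene, the copy of miR-29 it carries and the number of founder lines are not given in the sources used here.

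Liver burns fatty acids in 2 organelles. Mitochondria take up long-chain fatty acids as carnitine esters and shorten them in a repeated cycle of dehydrogenation, hydration, oxidation and thiolysis, passing electrons to the respiratory chain through the electron transfer flavoprotein. Peroxisomes start on very long and branched chains with their own transporters and enzymes. PPAR alpha is the nuclear receptor that senses fatty acids and switches on genes of both organelles, above all in fasting, when the liver makes ketone bodies and the hormone FGF21.

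Libraries came from 2 batches, which differed in kit and sequencing site. Batch A (10 libraries, TruSeq kit) held both sexes and batch B (7 libraries, directional NEBNext kit) only males, and of the transgenic libraries 1 was female, transgenic 3. Values are the authors' normalized counts, which summed to 28077001 to 44543936 per library. They are not divided by gene length, so levels are compared between libraries and not between genes. The labels do not say that each library came from its own mouse, so p-values measure the spread between these libraries, which may be technical. The precursor genes of miR-29a, miR-29b and miR-29c were listed at 0 in all 17 libraries, so the table does not check the transgene. Summed hepatocyte markers took 5.81% to 12.9% of the total in young wild type, 8.16% to 11.6% in old wild type and 5.75% to 15.9% in transgenic libraries. Alb, with a mean of 2246200 in young wild type, weighs most in this sum.

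The mature miR-29 strands are shown first because the transgenic mice carry this family. Capitals mark the seed, bases 2 to 8, which the family members share. The sequences are those of RefSeq on GRCm38.p6.
miR-29a-3p: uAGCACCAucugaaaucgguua
miR-29b-3p: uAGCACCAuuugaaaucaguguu
miR-29c-3p: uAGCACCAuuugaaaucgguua

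A message pairs with this seed where its 3′ UTR holds the 7 bases TGGTGCT. Taking for each gene the longest 3′ UTR in GENCODE M21 (GRCm38), this 7-base run was present in 4 of the 40 members (10%), against 2989 of 20995 genes (14.2%). Of these 4 genes, Abcd3 was lower and Ppargc1a was higher in transgenic liver by the test used throughout, and Cpt2 and Ehhadh were not called. Counts are per gene, so whether the transcript that holds the match was present was not tested. The Abcd3 gene spans chr3:121758774-121815302, and its match lies well before the end of the gene. Each match is printed on the strand of the gene with 11 bases on either side and the match in capitals. They lie at chr4:107904134-107904140 (Cpt2), chr3:121774021-121774027 (Abcd3), chr16:21761950-21761956 and chr16:21761633-21761639 (Ehhadh) and chr5:51454865-51454871 (Ppargc1a), all on the minus strand.
Cpt2: aaactagttccTGGTGCTtgagcagccag
Abcd3: cccttggtcccTGGTGCTggagaaatcat
Ehhadh first match: gctggtggtggTGGTGCTaaatggtcagc
Ehhadh second match: atgatgcaccaTGGTGCTgtgttgcagca
Ppargc1a: ggtacccgaacTGGTGCTttagaaatgcg

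PPAR alpha binds 2 copies of AGGTCA in the same direction with 1 base between them. The repeat AGGTCANAGGTCA was searched on both strands of RefSeq promoters (GRCm38.p6, 250 bases before to 50 after the start), which 34 of the 40 members had. A gene was counted once where any of its windows held a match. At least 10 of the 12 fixed letters were matched in 5 of the 34 (14.7%), against 4.4% of 27025 genes and 3.86% of 32851 single windows. At 9 or more letters the members were near the other genes, with 10 of the 34 (29.4%) against 27.3%, so the gap depends on the number of letters asked for. The 5 stretches are shown with the repeat in capitals, on the strand of the gene. Creb3l3 and Plin2 fell in transgenic liver, whereas Acot4, Etfa and Slc25a20 were not called. The promoter windows are chr10:81092542-81092841 (Creb3l3), chr4:86670010-86670309 (Plin2), chr12:84038129-84038428 (Acot4), chr9:55512194-55512493 (Etfa) and chr9:108661886-108662185 (Slc25a20). The Creb3l3 window lies inside the gene, at an alternative start. The window at the start of the gene in GENCODE, chr10:81098823-81099122, matched 8 letters at best. At 11 or more letters there was no member and 0.644% of genes, and a match describes letters only.
Creb3l3: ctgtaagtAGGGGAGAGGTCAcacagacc
Plin2: agctttcaGGACCCCTGACCTaagtcaga
Acot4: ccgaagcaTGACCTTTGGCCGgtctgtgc
Etfa: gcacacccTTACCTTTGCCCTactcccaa
Slc25a20: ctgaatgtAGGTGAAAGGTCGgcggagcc

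In transgenic liver at 2 months, 6 of 10 peroxisomal beta-oxidation genes and 4 of 7 regulators and response genes fell relative to young wild type liver, as did 1 of 11 genes of the mitochondrial spiral. Of the 40 members, 11 fell and 1 rose, by limma on log2(normalized count + 1) with batch and sex as terms and a Benjamini-Hochberg adjusted p under 0.05 over all genes. Over all 14588 genes, 3.83% fell, 2.89% rose and 6.71% were called in either direction. The fitted difference was below 0 for 33 of the 40, with a median log2 fold change of -0.54, against 0.01 over all genes tested. At an unadjusted p under 0.05 there were 19 lower and 2 higher members, against 1595 lower and 1504 higher of all 14588 genes. By the authors' deposited table, lower members numbered 19 and higher ones 2 (Acot3 and Ppargc1a), where 14.1% of its 15714 genes were called. The 40 genes together took 0.83% to 1.20% of the total in young wild type, 0.88% to 1.25% in old wild type and 0.453% to 0.892% in transgenic libraries. Genes with high counts weigh most in this share, such as Scp2, which was not called and averaged 100834 in young wild type. Without batch and sex terms 5 members were called, and without young wild type 3 or without young wild type 5 it was 7. With libraries rescaled to equal totals, 8 members fell and 1 rose, while over all genes 513 rose and 401 fell, against 421 and 558 with the authors' scaling. In bulk tissue, fewer cells of a type and less RNA per cell cannot be told apart.

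**Figure D1:**
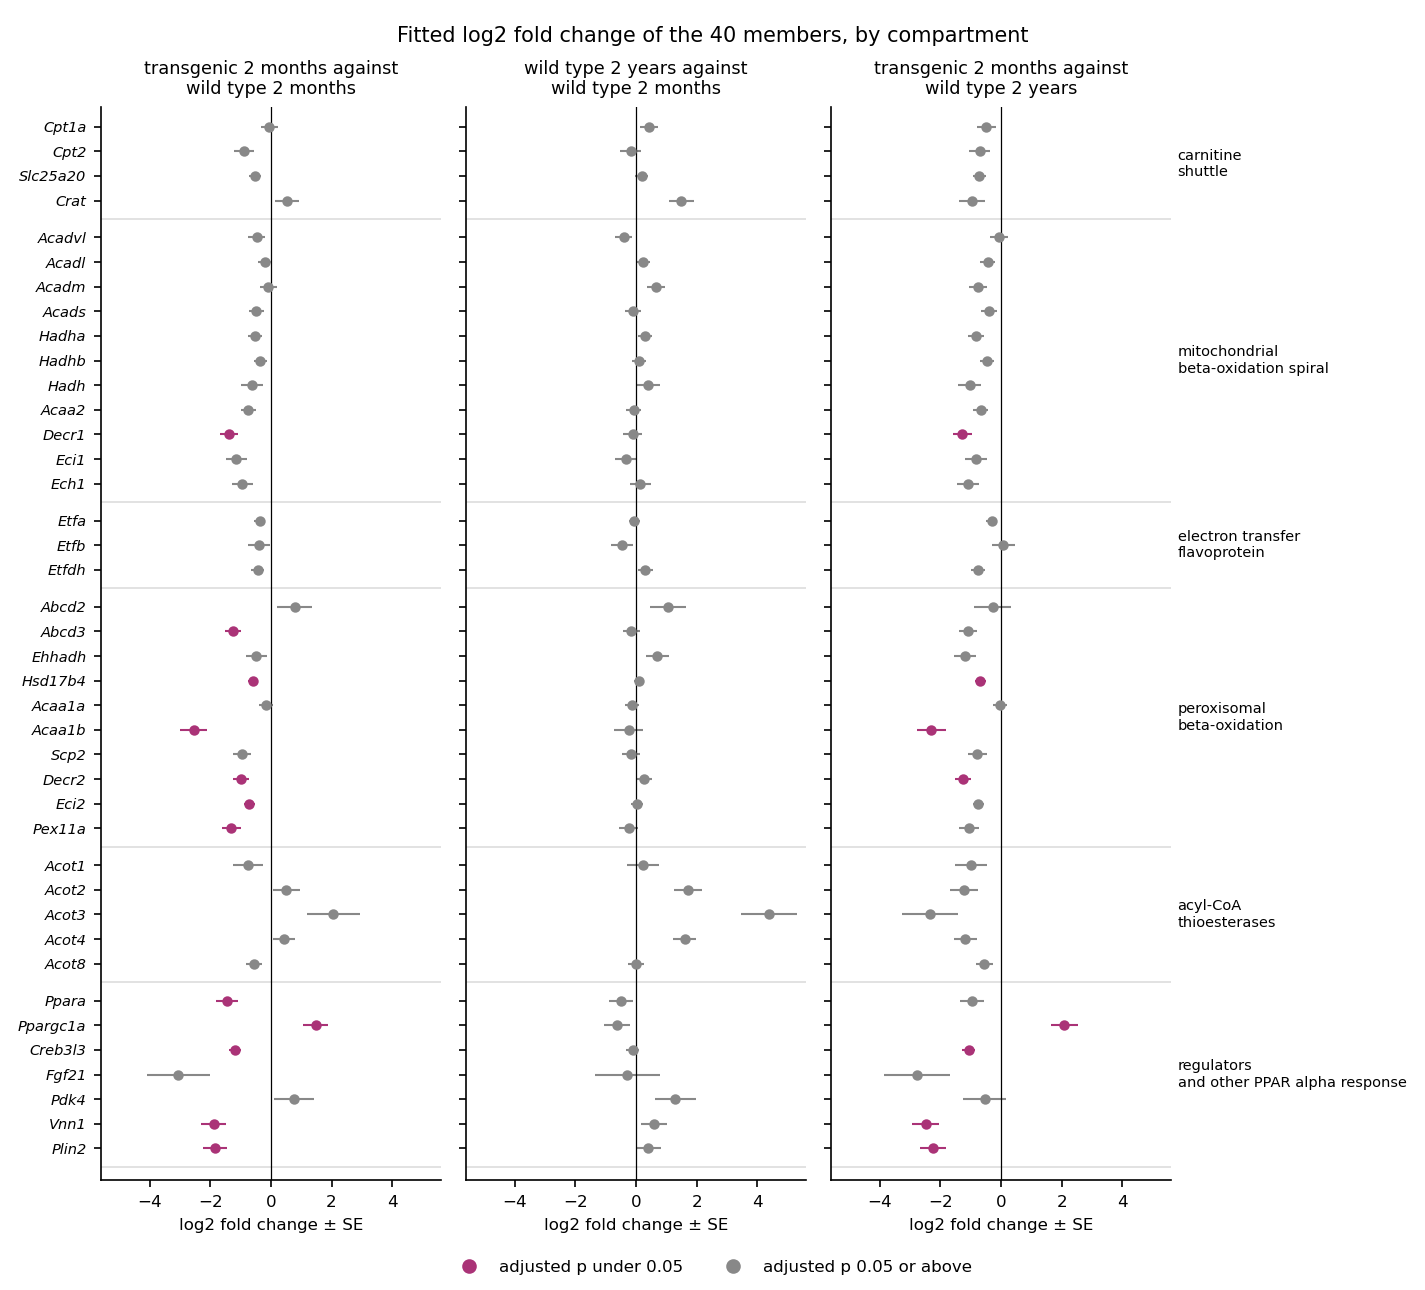
Fitted log2 fold change of each of the 40 members (points) with its standard error (bars) in the 3 comparisons, ordered by compartment; colour marks an adjusted p under 0.05. In the left panel 11 members are called below 0 and Ppargc1a is called above 0; in the middle panel no member is called and Acot3 lies farthest from 0.

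The calls were then counted by compartment. Peroxisomal beta-oxidation had 6 of 10 members called lower (median log2 fold change -0.83), and the regulators and response genes had 4 of 7 lower and 1 higher (median -1.44). The mitochondrial spiral had 1 of 11 called lower, although all 11 were fitted below 0 (median -0.52). None of the 4 carnitine shuttle genes (median -0.28), the 3 electron transfer genes (median -0.38) or the 5 thioesterases (median 0.44) was called. By limma, 2 carnitine shuttle genes and 1 thioesterase had an unadjusted p under 0.05. Whether the compartments differ from each other was not tested.

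Markers of other cells moved with the transgene, while over all genes 2.89% rose and 3.83% fell. Of 9 neutrophil markers 8 rose, and their summed level was 28.1 to 491 in young wild type, 97.4 to 2226 in old wild type and 427 to 48224 in transgenic libraries. Of 7 erythroid markers 4 rose, among them Hbb-bs and Hbb-bt, and the other 3 were fitted below 0, with the near-identical Hba-a1 and Hba-a2 at -2.09 and -2.08 (limma adjusted p = 0.16 and 0.161) and Alas2 at -1.09 (limma adjusted p = 0.315). Together the 7 took 0.0493% to 0.492% of the total in young wild type and 0.0823% to 4.07% in transgenic libraries. Of 7 Kupffer cell and macrophage markers 1 rose, as did 1 of 5 of sinusoidal endothelium (Stab2) and 1 of the 5 B and T lymphocyte markers tested (Ighm). Of 5 stellate cell markers 1 fell (Col1a1), as did Cela1, the 1 pancreas acinar marker tested of 5. No cholangiocyte marker of 4 was called by limma (1 at an unadjusted p under 0.05). None of the 6 hepatocyte markers was called by limma, with fitted differences from -1.13 to 1.17. At an unadjusted p under 0.05 there were 3 hepatocyte markers, 1 higher and 2 lower. The 6 adipocyte markers summed to 0 to 22.2 in young wild type, 5.70 to 416 in old wild type and 0 to 11.4 in transgenic libraries. The part of these cells in the results for the members was not tested.

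Ppara, which encodes the receptor PPAR alpha itself, fell in transgenic liver. Its normalized count ran from 757 to 2967 (median 1175) in young wild type, was 514, 737, 799.9, 941 and 1824 in the 5 old wild type libraries, and ran from 135 to 987 (median 902) in transgenic libraries. The young wild type and transgenic ranges overlap, and the 2 lowest of all libraries are transgenic 2 and 3, at 283 and 135. The young wild type libraries of batch B, at 1967 and 2967, lie above every transgenic library. The fitted fall was by 1.44 on the log2 scale (SE 0.37, limma adjusted p = 0.0284). The call was lost on leaving out young wild type 1, 3, 4, 5 or 6 or transgenic 2 or 3, with a limma adjusted p of up to 0.105. Ppara was called in 11 of the 16 other settings (limma adjusted p up to 0.264), and not in males alone or in batch A alone.

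Creb3l3 encodes CREBH, a liver transcription factor that works with PPAR alpha on fasting and triglyceride genes. It ran from 5733 to 12627 (median 9328) in young wild type, was 6589, 7260.1, 7750.1, 9362 and 10635 in old wild type, and ran from 2557 to 5271 (median 4466) in transgenic libraries. Every transgenic library lay below every young and every old wild type library, and transgenic 3 stood apart at the low end. The fall was by 1.17 on the log2 scale (SE 0.20, limma adjusted p = 0.00176), with -1.18 in batch A alone and -1.30 in batch B alone. Creb3l3 was called under each of the 16 other settings tried and with each of the 17 libraries left out.

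Ppargc1a encodes PGC-1 alpha, a coactivator of PPAR alpha and of mitochondrial genes, and was the 1 member that rose. Its counts ran from 146 to 943 (median 557) in young wild type, were 109, 201, 366, 397 and 429.5 in old wild type, and ran from 435 to 3803 (median 717) in transgenic libraries. The highest transgenic value was transgenic 3, followed by transgenic 2 at 2019, and the other 4 lie within the young wild type range pooled over batches. The 2 young wild type libraries of batch B averaged 176, and no transgenic library of either batch lay below 435. The rise was 1.48 on the log2 scale (SE 0.41, limma adjusted p = 0.0394). It was called in 8 of the 16 other settings (limma adjusted p up to 0.377). The call was lost on leaving out young wild type 2, 3, 4, 5 or 6 or old wild type 5 or transgenic 2, 3 or 5, with a limma adjusted p of up to 0.14.

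Fgf21, the fasting hormone that PPAR alpha and CREBH switch on, was low throughout and did not pass the test. It ran from 25.7 to 145 (median 46.4) in young wild type, was 1.14, 23.2, 45.7, 154 and 247 in old wild type, and was 0, 0.946, 3.4, 5.41, 6.19 and 73.4 in transgenic libraries. A single transgenic library, transgenic 1, lies within the young wild type range and the other 5 lie below it. The fitted difference was -3.05 on the log2 scale (SE 1.04, limma adjusted p = 0.0905). Fgf21 was called in 2 of the 16 other settings, 1 of them the authors' deposited table (DESeq2 adjusted p = 0.00066). It was also called in 2 of the 17 fits with a library left out. Pdk4, a kinase that blocks pyruvate oxidation when fat is burned, had a fitted difference of 0.76 (SE 0.66, limma adjusted p = 0.565) and was at -0.47 in batch A alone and 2.497 in batch B alone (limma adjusted p = 0.815 and 0.0739). The difference between batches was 2.97 (SE 1.19, unadjusted p = 0.0252, limma adjusted p = 0.246).

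Plin2 and Vnn1, the remaining response genes, were both lower. Plin2 encodes perilipin 2, a coat protein of lipid droplets, and ran from 7157 to 12725 (median 8916) in young wild type, was 6656, 8042, 10886, 19405 and 20585 in old wild type, and ran from 781 to 5523 (median 3168) in transgenic libraries. Here too no transgenic library reached a wild type library of either age. The fall of Plin2 was by 1.84 on the log2 scale (SE 0.39, limma adjusted p = 0.00865), with -2.49 in batch A and -1.18 in batch B, where it was not called (limma adjusted p = 0.13). Vnn1 encodes vanin 1, a pantetheinase strongly induced by PPAR alpha, and fell by 1.89 on the log2 scale (SE 0.42, limma adjusted p = 0.0104). Its batch A counts were 692, 798, 1121 and 1506 in young wild type and 145, 276 and 311 in transgenic libraries. Its batch B counts were 238 and 279.6 in young wild type and 51.7, 53.3 and 141 in transgenic libraries, so the groups separate within each batch but overlap when batches are pooled. Vnn1 was called in 12 of the 16 other settings (limma adjusted p up to 0.257), and not in males alone or in batch B alone.

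**Figure D2:**
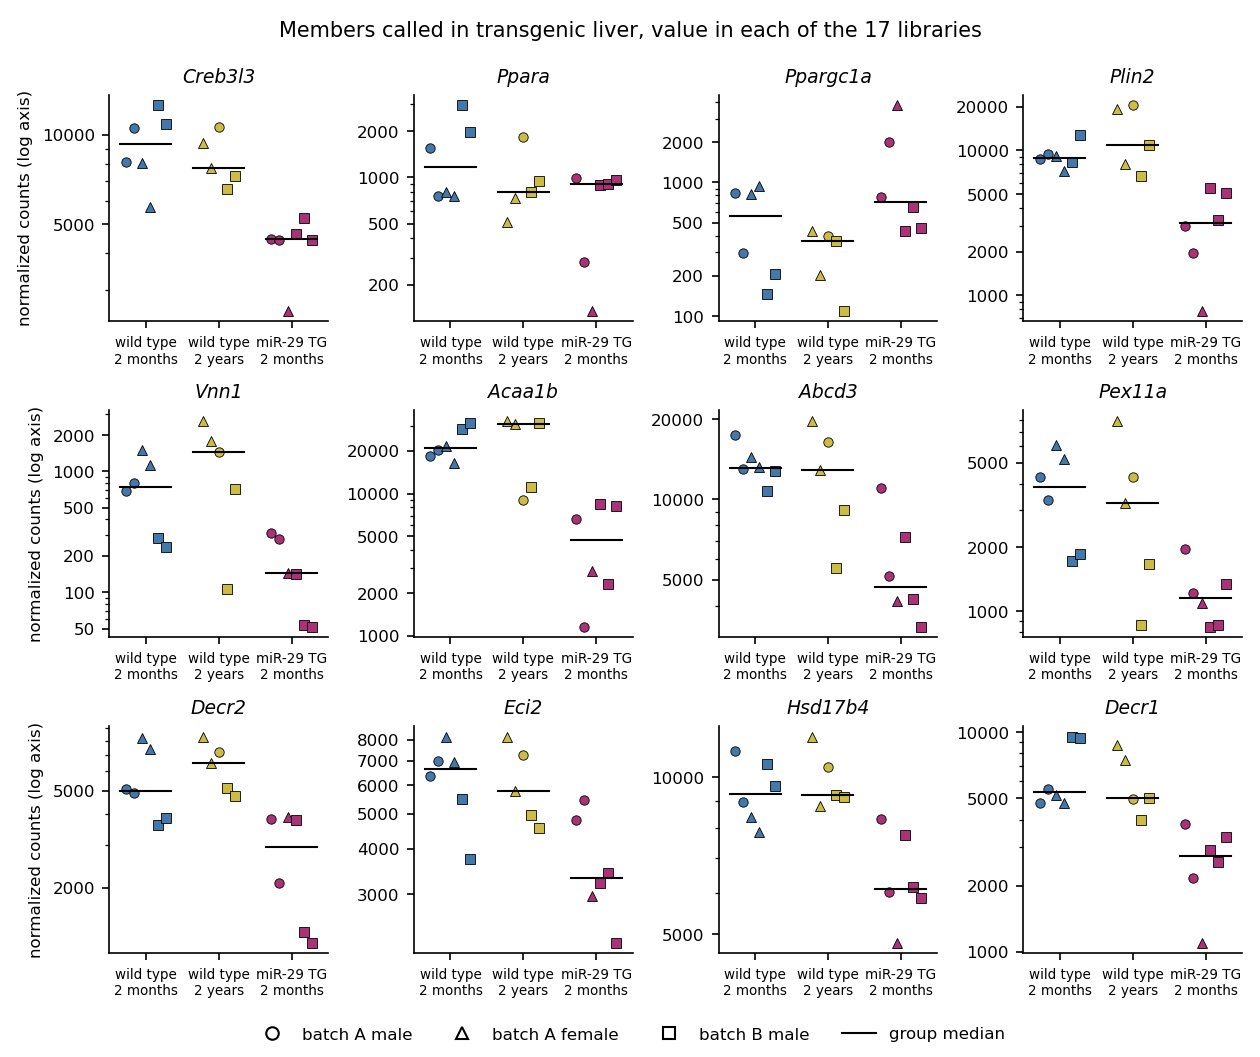
Normalized counts (log axes) of the 12 members called in transgenic liver, with 1 point for each of the 17 libraries, shape for batch and sex, and a bar at each group's median. Creb3l3, Plin2, Acaa1b and Decr1 have no transgenic library as high as any young wild type library, and Ppargc1a has its highest value in transgenic 3.

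Peroxisomal beta-oxidation held the largest fall among the called members, Acaa1b, 1 of 2 peroxisomal thiolases that release acetyl-CoA in the last step. Acaa1b ran from 16257 to 31233 (median 20922) in young wild type, was 8974, 11119, 30695, 31469 and 32419 in old wild type, and ran from 1159 to 8438 (median 4746) in transgenic libraries. No transgenic library came within the range of the young or old wild type libraries. The fall was by 2.54 on the log2 scale (SE 0.45, limma adjusted p = 0.00224), with -2.68 in batch A and -2.46 in batch B, where it was not called (limma adjusted p = 0.1). Its neighbour on chromosome 9, Acaa1a, encodes the other thiolase and had a fitted difference of -0.16 (SE 0.23, limma adjusted p = 0.747). Acaa1a was at 0.31 in batch A alone and -0.90 in batch B alone (limma adjusted p = 0.434 and 0.104). The difference between batches was -1.21 (SE 0.32, limma unadjusted p = 0.00191, limma adjusted p = 0.0928). Acaa1a also differed strongly by batch, at 3487 on average in the 2 young wild type males of batch A and 23400.0 in the 2 of batch B. The coding sequences of the 2 genes are 96.5% identical over 1275 aligned bases, so the authors' assignment of reads between them is uncertain. Summed, the pair ran from 19112 to 53479 in young wild type, from 13486 to 44896 in old wild type and from 5013 to 21914 in transgenic libraries. Pooled over batches, the young groups overlap, and within each batch they separate. In batch A the sums were 19112 to 25124 in young wild type and 5013 to 10271 in transgenic libraries. In batch B they were 52949 and 53479 in young wild type and 14486 to 21914 in transgenic libraries. The RefSeq promoter windows of Acaa1a and Acaa1b share 47.5% of aligned positions in an alignment that allows gaps. The share between unrelated windows was not measured, so this value does not tell whether the windows are similar.

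Abcd3 and Pex11a, both of the peroxisomal membrane, fell. Abcd3 encodes PMP70, the peroxisomal membrane transporter of fatty acyl-CoA, and ran from 10707 to 17421 (median 13113) in young wild type, was 5524, 9126, 12862, 16460.5 and 19718 in old wild type, and ran from 3329 to 11058 (median 4692) in transgenic libraries. Only transgenic 1 reached into the young wild type range. Abcd3 fell by 1.24 on the log2 scale (SE 0.27, limma adjusted p = 0.0101) and was called in 14 of the 16 other settings (limma adjusted p up to 0.121). Pex11a encodes a membrane protein of peroxisome division and ran from 1715 to 6076 (median 3834) in young wild type, was 863, 1675, 3244, 4287 and 7913 in old wild type, and ran from 842 to 1967 (median 1157) in transgenic libraries. It fell by 1.30 on the log2 scale (SE 0.30, limma adjusted p = 0.0154), and without transgenic 3 the limma adjusted p was 0.056. It was called in 13 of the 16 other settings (limma adjusted p up to 0.227). Abcd2, a transporter related to Abcd3, was not called, at 0.79 (SE 0.58, limma adjusted p = 0.479).

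The other 3 called peroxisomal enzymes handle the middle of the cycle and unsaturated chains. Decr2, the peroxisomal dienoyl-CoA reductase, ran from 3604 to 8208 (median 4985) in young wild type, was 4759.5, 5142, 6477, 7204 and 8311 in old wild type, and ran from 1194 to 3883 (median 2935) in transgenic libraries. The 2 lowest transgenic values, 1194 and 1315, are both of batch B, and the ranges of the young groups overlap. Decr2 fell by 0.99 on the log2 scale (SE 0.25, limma adjusted p = 0.0268). Its call was lost on leaving out young wild type 3, 5 or 6 or transgenic 2 or 5, with a limma adjusted p of up to 0.0702, and it was called in 11 of the 16 other settings (limma adjusted p up to 0.267).

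Eci2, the enoyl-CoA isomerase found in peroxisomes and mitochondria, ran from 3759 to 8132 (median 6656) in young wild type, was 4573, 4975, 5767, 7246 and 8157 in old wild type, and ran from 2206 to 5452 (median 3323) in transgenic libraries. The groups overlap when pooled and separate within each batch. Eci2 fell by 0.71 on the log2 scale (SE 0.18, limma adjusted p = 0.0279). Without young wild type 3, 4 or 5 or transgenic 3 or 6 it was not called, with a limma adjusted p of up to 0.0938, and it was called in 9 of the 16 other settings (limma adjusted p up to 0.254).

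Hsd17b4, the D-bifunctional protein of the hydration and oxidation steps, had the smallest fall of the 11. It ran from 7845 to 11232 (median 9295) in young wild type, was 8790.0, 9174, 9230.1, 10442 and 11956 in old wild type, and ran from 4812 to 8295 (median 6098) in transgenic libraries. The highest transgenic library lies above the lowest young wild type library. The fall was by 0.58 on the log2 scale (SE 0.16, limma adjusted p = 0.0423), and it was called in 7 of the 16 other settings (limma adjusted p up to 0.197). It was lost on leaving out young wild type 1, 2, 3, 4, 5 or 6 or old wild type 3 or 5 or transgenic 2, 3, 5 or 6, with a limma adjusted p of up to 0.117.

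Of the 4 peroxisomal members that were not called, Scp2, whose products are a sterol carrier and a thiolase for branched chains, had the smallest p. It ran from 58736 to 140168 (median 102694) in young wild type, was 59096, 70711, 92719, 96917 and 110189 in old wild type, and ran from 22307 to 73227 (median 69092) in transgenic libraries, with a fitted difference of -0.95 (SE 0.29, limma adjusted p = 0.0574). Transgenic 3 is again the lowest of the 17 libraries. Scp2 was called in 2 of the 16 other settings, 1 of them the authors' deposited table (DESeq2 adjusted p = 1.1e-06). With 1 library left out it was called in 3 of the 17 fits. Ehhadh, the L-bifunctional enzyme and a classic PPAR alpha target, ran from 1769 to 11816 (median 6343) in young wild type and from 1444 to 4728 (median 3713) in transgenic libraries. Its fitted difference was -0.48 (SE 0.35, limma adjusted p = 0.481), with -1.04 in batch A and 0.23 in batch B.

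In the mitochondrial spiral, Decr1, the dienoyl-CoA reductase that deals with polyunsaturated chains, was the 1 member that fell. It ran from 4744 to 9542 (median 5331) in young wild type, was 4003, 4969, 5011, 7448 and 8769 in old wild type, and ran from 1102 to 3804 (median 2739.5) in transgenic libraries. Every transgenic library lay below every wild type library of both ages. The fall was by 1.39 on the log2 scale (SE 0.30, limma adjusted p = 0.00889), and among males alone the difference was -1.29 (limma adjusted p = 0.00859). In batch A alone Decr1 was not called (limma adjusted p = 0.1). Eci1, the mitochondrial enoyl-CoA isomerase for unsaturated chains, came next at -1.14 (SE 0.34, limma adjusted p = 0.057), with 2524 to 9216 (median 3721) in young wild type, 2345, 2603, 4429.6, 4949.6 and 5284 in old wild type and 834 to 4338 (median 2744) in transgenic libraries. Acaa2, the thiolase that closes the mitochondrial cycle, was at -0.74 (SE 0.24, limma adjusted p = 0.0693), with 19114 to 41808 (median 23302) in young wild type, 18077, 24965, 25184, 30992 and 31909 in old wild type and 7065 to 25902 (median 23530.0) in transgenic libraries. Eci1 and Acaa2 overlap between the young groups, and transgenic 3 is the lowest library for both. Each was called in 2 of the 16 other settings, 1 of them the authors' deposited table (DESeq2 adjusted p = 0.00064 and 0.0136). With 1 library left out, Eci1 was called in 5 of the 17 fits and Acaa2 in 1.

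The chain-length dehydrogenases of the first step were not called: Acadvl, Acadl, Acadm and Acads, for very long, long, medium and short chains, were fitted at -0.46, -0.20, -0.08 and -0.49 (SE 0.28, 0.22, 0.28 and 0.25; limma adjusted p from 0.271 to 0.907). Hadha and Hadhb, the 2 subunits of the trifunctional protein, were at -0.52 and -0.35, and Hadh, the short-chain hydroxyacyl-CoA dehydrogenase, at -0.62. Ech1, a dienoyl-CoA isomerase, was at -0.94 (SE 0.34, limma adjusted p = 0.112). The electron transfer flavoprotein subunits Etfa and Etfb and their dehydrogenase Etfdh were at -0.36, -0.38 and -0.44. All of these are fitted below 0 and none passed the limma test. In the authors' deposited table Acads and Ech1 were called lower (DESeq2 adjusted p = 0.0406 and 0.0188).

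Of the 40 members, Cpt1a of the carnitine shuttle had the fitted difference nearest to 0. Cpt1a, the outer membrane transferase that sets the rate of mitochondrial entry, ran from 3304 to 10698 (median 8512) in young wild type, was 5226, 6319, 7309, 10731 and 21088 in old wild type, and ran from 2357 to 13101 (median 6447) in transgenic libraries. The transgenic range encloses the young wild type range, and the fitted difference was -0.05 (SE 0.28, limma adjusted p = 0.948). Cpt2, the inner membrane transferase, ran from 3081 to 4095 in young wild type and from 987 to 2942 in transgenic libraries. These ranges do not overlap, yet the fit gave -0.88 with an SE of 0.34 (limma adjusted p = 0.133). Cpt2 was called lower in the authors' deposited table (DESeq2 adjusted p = 0.00558). Slc25a20, the carnitine-acylcarnitine translocase, was at -0.52 (limma adjusted p = 0.15), and Crat, the carnitine acetyltransferase, at 0.54 (limma adjusted p = 0.48).

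The calls in transgenic liver were compared between batches and sexes. Every transgenic library lay below every young wild type library for 5 members (Cpt2, Decr1, Acaa1b, Creb3l3 and Plin2), 12.5% of the 40 against 1.84% of all genes. Within both batches the transgenic libraries lay below for 9 members (Decr1, Abcd3, Acaa1b, Eci2, Pex11a, Creb3l3, Vnn1, Plin2 and Cpt2), 22.5% against 4.03% of all genes. No member lay above in both batches, where 3% of all genes did. Fitted alone, batch A gave a median of -0.75 with 5 members lower (3.39% of all genes called), and batch B gave -0.67 with 3 lower (1.8% called). In males alone, 5 members were lower and 1, Acot3, was higher, with a median of -0.48 (5.05% of all genes called). The interaction of transgene and batch called 0 of the 40 members by limma, against 0.5% of all genes. At an unadjusted p under 0.05 there were 3 members, against 2287 of all 14588 genes.

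**Figure D3:**
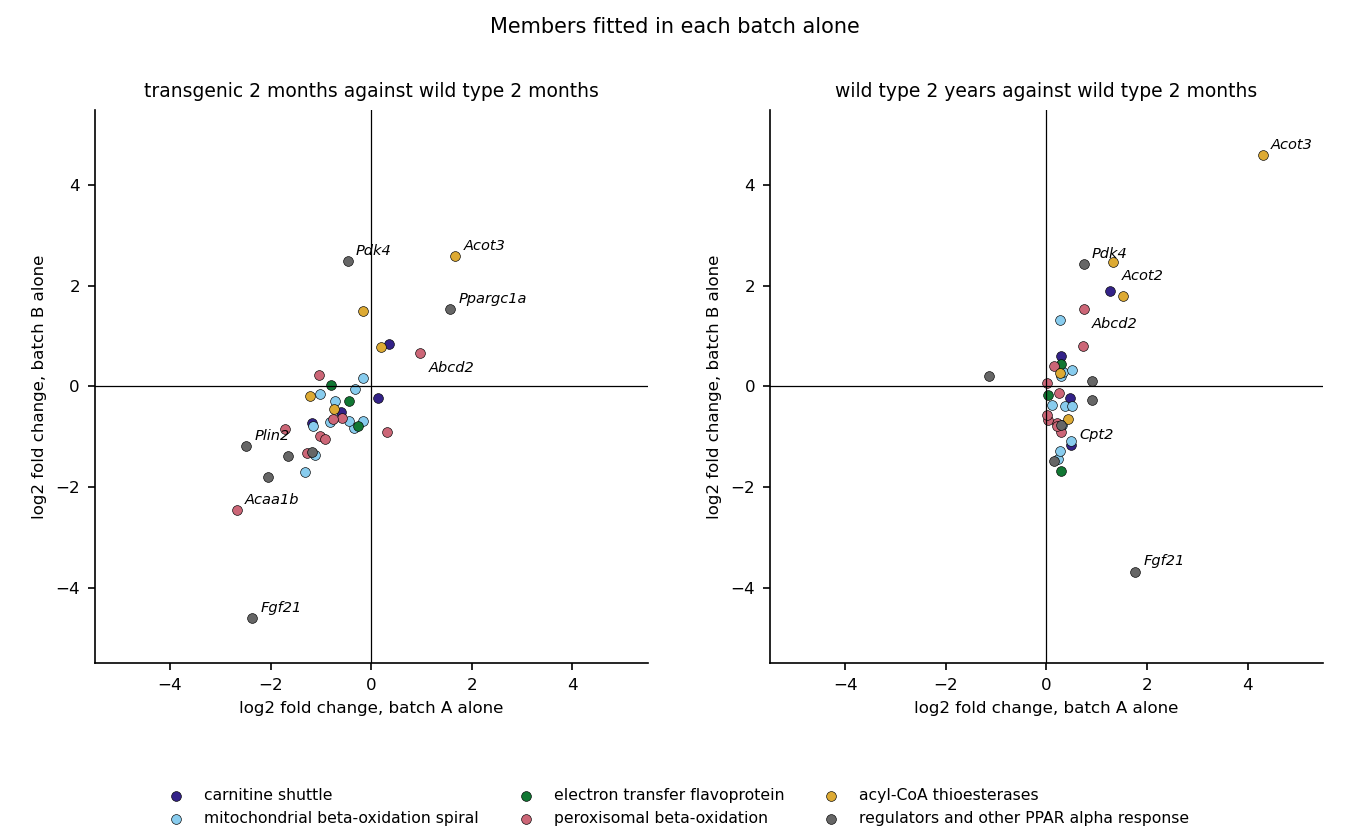
Fitted log2 fold change of the 40 members in batch A alone (horizontal) against batch B alone (vertical), coloured by compartment, for the transgene (left) and for age (right). On the left most members lie below 0 in both batches; on the right 39 members are above 0 in batch A but only 18 are in batch B.

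With age, no member passed the test in wild type liver, and the 3 members with the smallest p were thioesterases. By limma 0 of 40 members were called, against 0.144% of all genes. An unadjusted p under 0.05 was found for 5 members, all higher, against 665 higher and 609 lower of all 14588 genes. The median log2 fold change was 0.10. Of the 6 B and T lymphocyte markers 1 rose with age, with sums of 123 to 412 in young and 1117 to 3937 in old wild type, and their part in the results was not tested. The 5 were Acot2, Acot3 and Acot4, Crat and Acadm, the last at 0.66 (SE 0.29, limma adjusted p = 0.552). In the authors' deposited table, 4 members were called higher with age (Acot2, Acot3, Acot4 and Crat) and 0 lower, with 1.77% of its 15814 genes called.

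Acyl-CoA thioesterases split activated fatty acids back into free acid and coenzyme A. Acot2 works in mitochondria, Acot1 in the cytosol, and Acot3, Acot4 and Acot8 in peroxisomes. Acot1 to Acot4 are neighbours on chromosome 12 with coding sequences 67.8% to 85.6% identical, so reads may be shared among them.

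Acot3 had the widest range of the group. In young wild type its 4 male libraries were at 8.63, 11.1, 19 and 32.1, and its 2 female libraries at 625 and 979. In old wild type the 3 males were at 371, 1048 and 1188 and the 2 females at 3258 and 3772. Within each sex, every old library lay above every young one. The fitted difference with age was 4.39 on the log2 scale (SE 0.91, limma adjusted p = 0.0803). Among males alone it was 5.58 and was called (limma adjusted p = 0.0209), the 1 member called there, against 0.281% of all genes. Without transgenic 3 the fit on both sexes also called it (limma adjusted p = 0.015). The authors' deposited table gave 4.46 with an adjusted p of 9.3e-11.

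In transgenic liver the 5 males had Acot3 at 40.9, 182, 208, 421 and 599, all above the 4 young wild type males, and the female library was at 92.5, below both young wild type females. The fitted difference was 2.06 (SE 0.88, limma adjusted p = 0.181), and among males alone it was 3.68 (limma adjusted p = 0.00859). With 1 female transgenic library, the difference between sexes was not tested.

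Acot4 and Acot2 had the next smallest p with age. Acot4 ran from 159 to 953 (median 257) in young wild type, was 561, 853, 1414, 1415 and 1633 in old wild type, and ran from 167 to 841 (median 417) in transgenic libraries. Its old libraries lay above the young ones within each batch, at a fitted difference of 1.61 (SE 0.38, limma adjusted p = 0.125). Acot2 ran from 14.6 to 341 (median 60.8) in young wild type, was 101, 141, 275, 306 and 714 in old wild type, and ran from 28.1 to 127 (median 97.6) in transgenic libraries. The young wild type females, at 269 and 341, overlap the old libraries, and the fitted difference was 1.72 (SE 0.45, limma adjusted p = 0.206). Acot1 was at 0.23 with age (limma adjusted p = 0.89), and Acot8 had a limma adjusted p of 0.999.

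**Figure D4:**
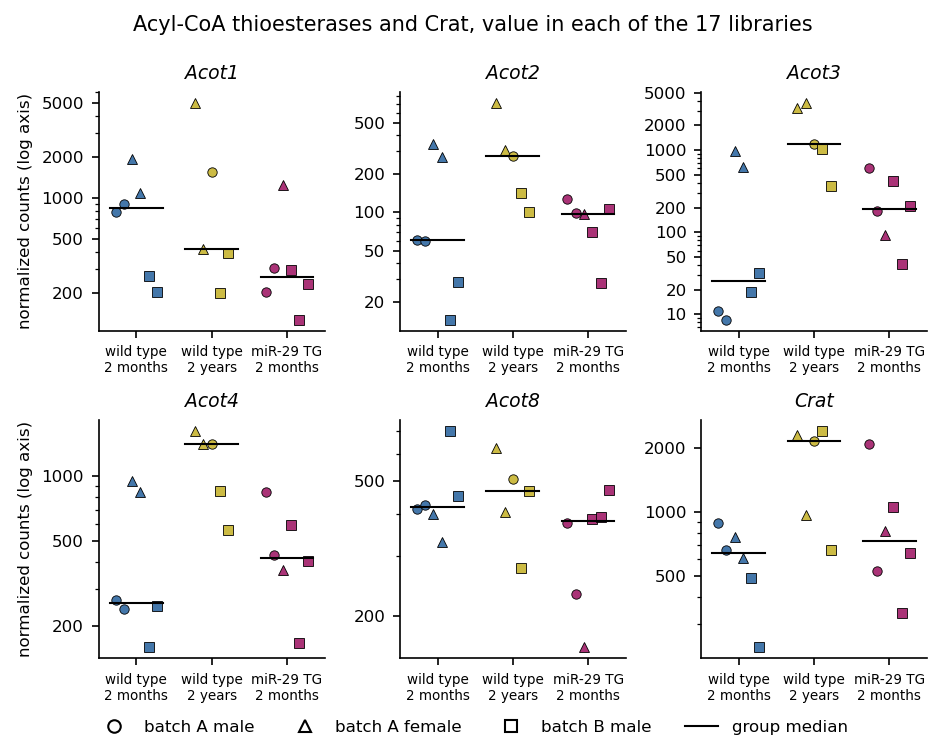
Normalized counts (log axes) of the 5 acyl-CoA thioesterases and Crat, with 1 point for each of the 17 libraries, shape for batch and sex, and a bar at each group's median. For Acot3 the 4 young wild type males lie between 8.63 and 32.1 and all old libraries lie at 371 or above.

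Crat, which exchanges acetyl groups between carnitine and coenzyme A, was at 232, 491, 611, 666, 764 and 891 in young wild type and at 662, 967, 2149.5, 2294 and 2401 in old wild type. The groups overlap when pooled and separate within each batch, with a fitted difference of 1.50 (SE 0.41, limma adjusted p = 0.237). Within both batches the old libraries lay above the young for 3 members (Crat, Acot3 and Acot4), 7.5% of the 40 against 1.13% of all genes, and below for none, against 0.816%.

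For many members the fitted age difference had opposite signs in the 2 batches. In batch A alone 39 of 40 were fitted above 0 (median 0.30, against 0.008 over all genes). In batch B alone 18 of 40 were (median -0.20, against 0.025 over all genes). No member was called in either batch alone. For Cpt2 and Hadhb every old library lay above the young ones in batch A and below them in batch B, 5% of the members against 0.761% of all genes. For Cpt2 the young wild type males of batch B were at 3583 and 4095 against 1413 and 2036 in the old males of that batch. The interaction of age and batch called 0 members by limma, against 0.0206% of all genes. At an unadjusted p under 0.05 there were 11 members, all with a lower age difference in batch B. Of all 14588 genes 3279 had such a p, 1899 of them with a lower age difference in batch B.

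The regulators showed no called difference with age. Ppara, Ppargc1a, Creb3l3 and Fgf21 were fitted at -0.50, -0.61, -0.11 and -0.28 (SE 0.39, 0.43, 0.21 and 1.08), with limma adjusted p from 0.658 to 0.944. Cpt1a was fitted at 0.43 (SE 0.30, limma adjusted p = 0.654). Between males and females 0 members were called by limma, against 0.26% of all genes. At an unadjusted p under 0.05 there were 4 members, against 1367 of all 14588 genes. The largest fitted sex difference was that of Acot3, lower in males, at -2.63 (SE 0.96, limma adjusted p = 0.363).

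Young transgenic and old wild type livers were then compared directly, a contrast in which age and genotype both differ. Here 7 members were lower in transgenic liver and 1 was higher, 38 of 40 were fitted below 0, and the median was -0.79, against 0.02 over all genes. In batch A alone the median was -1.19 with 37 of 40 below 0, and in batch B alone it was -0.47 with 31 below 0. Of all genes 1.84% were lower, 0.713% higher and 2.55% called in either direction. The lower ones were Plin2 (-2.24), Vnn1 (-2.48), Acaa1b (-2.29), Decr1 (-1.28), Decr2 (-1.25), Creb3l3 (-1.06) and Hsd17b4 (-0.68), with limma adjusted p from 0.0053 to 0.0472. Ppargc1a was higher by 2.09 (SE 0.43, limma adjusted p = 0.0161). Within both batches the transgenic libraries lay below the old ones for 7 members (Decr1, Acaa1b, Decr2, Eci2, Hsd17b4, Creb3l3 and Plin2), against 2.29% of all genes. Over males alone limma called 0 members, where 1.2% of all genes were called.

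Several of these calls depended on single libraries. Without old wild type 5, 3 members were called in place of 8. Leaving out old wild type 3 or transgenic 3 gave 5 members, and leaving out transgenic 4 gave 12. Creb3l3, Vnn1 and Plin2 were called with each of the 17 libraries left out. Acaa1b was not called without old wild type 5 (limma adjusted p = 0.0593). Decr2 was not called without old wild type 3 or 5 (limma adjusted p up to 0.0629), and Ppargc1a was not called without old wild type 5 or transgenic 3 (limma adjusted p up to 0.0602). Decr1 was not called without young wild type 2, 3 or 4 or old wild type 1, 2, 3 or 5 or transgenic 2, 3, 5 or 6 (limma adjusted p up to 0.128), and Hsd17b4 was not called with any library left out other than old wild type 4, transgenic 1 or transgenic 4 (limma adjusted p up to 0.126).

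None of the 5 thioesterases was called in this contrast. Acot2, Acot3 and Acot4 lay at -1.21, -2.33 and -1.18 in transgenic against old wild type liver (limma adjusted p = 0.21, 0.233 and 0.128). The age and the transgene comparison share the young wild type libraries, so their values are given side by side only. Acot3 was at 4.39 with age and 2.06 with the transgene, Acaa1b at -0.24 and -2.54, Plin2 at 0.40 and -1.84, and Ppargc1a at -0.61 and 1.48.

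Other genes of the same pathways, taken from lists by pathway, were counted in the same fit. With the transgene, 3.83% of all genes fell, 2.89% rose and 6.71% were called in either direction. In transgenic liver Bdh1, which interconverts the 2 main ketone bodies, fell, with a fitted difference of -2.41 on the log2 scale (limma adjusted p = 0.0439). Of 24 further peroxisomal genes 4 fell and none rose: Crot, the carnitine octanoyltransferase that exports shortened chains, was at -2.12, catalase (Cat) at -1.63, Phyh, which starts alpha-oxidation of branched chains, at -0.91, and Amacr, a racemase of branched-chain acyl-CoA, at -0.78. Of 16 further PPAR alpha targets tested 4 fell, among them Angptl4, an inhibitor of lipoprotein lipase, at -1.37, Retsat, a retinol saturase, at -0.93, and Cyp8b1 of bile acid synthesis at -1.58. Of 16 further mitochondrial acyl-CoA enzymes 1 fell and none rose.

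Uptake and omega oxidation genes did not all go the same way. Cd36, a fatty acid uptake receptor, rose in transgenic liver by 2.17 on the log2 scale (limma adjusted p = 0.000252). With age Cd36 rose by 1.87 (limma adjusted p = 0.0139), the 1 gene of these lists called with age, against 0.144% of all genes. Its young wild type males lay at 272, 289, 807 and 835, the 2 young wild type females at 2385 and 3493, and transgenic libraries at 2145 to 4988. Fabp1, the liver fatty acid binding protein, fell by 4.90 (SE 1.01, limma adjusted p = 0.00709), and ran from 121126 to 246150.0 in young wild type and from 339.9 to 81659 in transgenic libraries, which do not overlap. The omega hydroxylase Cyp4a14, a PPAR alpha target, rose by 3.46 (SE 0.91, limma adjusted p = 0.03). In batch A its young wild type males were at 1404 and 1685, the females at 26361 and 36329.8, and the transgenic libraries at 16456, 24904 and 25653, the last the female. In batch B the young wild type males were at 37.7 and 100.2 and the transgenic males at 1608, 3651 and 8774, so the transgenic libraries lie above young wild type in the males of both batches and not in the females. The fitted rise was larger in batch B than in batch A by 3.86 (SE 1.44, unadjusted p = 0.0171, limma adjusted p = 0.215). Cyp4a10 was at 2.52 (limma adjusted p = 0.0763). Of 12 uptake and activation genes 1 rose and 3 fell, and of 5 omega oxidation genes 1 rose. Of 19 receptors and cofactors, Pparg rose by 1.04 and Ppargc1b fell by 1.34. Over all genes, 2.89% rose and 3.83% fell.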

How the data were processed

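Polyadenylated RNA of mouse liver was measured in 17 libraries. The software listed in the submitters' processing notes is Salmon 0.6.0, STAR 2.5.3a and DESeq2, with mm10 as the build. The authors deposited DESeq2 normalized counts per gene (a depth-scaled signal), from which whole reads could not be recovered, so sampling depth is unknown and no count model was used. The authors also deposited comparison tables, named as corrected for batch and sex, with log2 fold changes and their standard errors, test statistics (a score) and p-values; here they served as an alternative.

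Values were analysed as log2(value + 1) with limma 3.58.1 in R 4.3.3. Genes with a mean of at least 10 over all libraries were kept. The model held group, batch and sex over all 17 libraries with a mean-variance trend, and p-values were adjusted by Benjamini-Hochberg over the 14588 genes kept, with a threshold of 0.05. All p-values are two-sided. Fold changes on this scale understate the change of low genes. Interactions of batch with age and with the transgene were fitted in the same way. The scripts were tested on simulated data. Alternatives were the pseudocount, the filter, rescaling, model terms, subsets of libraries, library quality weights and each library left out.

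The 40 members and the other gene lists were chosen with earlier results of these data known. Members given library by library are those called with age or with the transgene (at most 12 each), the 3 uncalled members of smallest p in each comparison, and Ppara, Ppargc1a, Creb3l3, Fgf21 and Cpt1a. Of other genes, Cyp4a10, Cyp4a14 and Angptl4 and the 8 called of smallest p are named, apart from items that are not reported here. Others named beyond this rule, such as Cpt2, Crat, Ehhadh, Bdh1, Pparg and Ppargc1b, were chosen after their values were seen. Replicate numbers did not pair libraries across groups: 7 of 16 same-numbered pairs correlated above 0.1, as did 32 of 80 differently numbered pairs. miRNA and promoter sequences came from RefSeq tables and 3′ UTRs from the GENCODE annotation of the reference genome.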

Additional observations from a re-analysis of the deposited data

Results flagged for a closer look

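Among 60 sets of values (1 gene in 1 group of libraries) examined for a library far from the rest, 1 was found. Chance alone gives about 1 for every 20 sets, so 1 in 60 is not more than chance gives. The value found was that of Creb3l3 in transgenic 3, the female library of that group, at a normalized count of 2557.1. The nearest transgenic library was at 4435, and the fall of Creb3l3 was also called without transgenic 3.

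Cpt2 and Hadhb differed with age in opposite directions in the 2 batches, with every old wild type library above the young ones in batch A and below them in batch B. The fitted age difference in batch B minus that in batch A was -1.66 for Cpt2 and -0.77 for Hadhb on the log2 scale, and neither was called by the limma test of that interaction. Batch B held only males. Batch A held both sexes, and its 1 old male also lay above its 2 young wild type males for both genes. Batch B also used another library kit, and kit and site cannot be told apart from the batch.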

How the results depend on the processing

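Of the counts of members called in the 3 group comparisons (12 with the transgene, 8 for transgenic against old wild type, 0 with age), these settings moved them by over 1.5 times or from 0. Without batch and sex terms the counts were 5 with the transgene and 2 against old wild type. With males only they were 6, 0 and, with age, 1. Batch A alone gave 5 with the transgene and 3 against old wild type, and batch B alone gave 3 and 0. With only the 2 groups compared, 0 were called against old wild type and 1 with age. The authors' deposited tables called 21 with the transgene and 4 with age. With each library left out, the counts ran from 7 to 17 with the transgene, from 3 to 12 against old wild type, from 0 to 1 with age and from 0 to 2 between sexes. The highest counts with age and between sexes came without transgenic 3. Both interactions with batch stayed at 0 members with each library left out.

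Over all genes, 979 were called with the transgene, 372 against old wild type and 21 with age. Without batch and sex terms these were 421, 139 and 5, in batch A 495, 175 and 1, and in batch B 263, 45 and 0. Against old wild type and with age they were 175 and 41 in males, 120 and 10 with only the 2 groups compared, 733 and 60 with quality weights and 247 and 11 with the replicate block. With age, 9 were called with a mean of at least 50 or without a sex term. The authors' deposited tables called 2211 with the transgene and 280 with age. With 1 library left out, the age count ran from 9 to 37 and the count against old wild type from 161 to 525. Rescaling to equal totals raised the median log2 fold change of all genes to 0.13 both with age and with the transgene.

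Signs turned for results that were not called. With age these were Fgf21 with a pseudocount of 10 (0.024), in batch A (1.76) and with quality weights (1.11), Creb3l3 after rescaling to totals (0.025), in batch A (0.30) and with quality weights (0.091), Ppara in batch A (0.14) and Ppargc1a in batch B (0.21). With the transgene, Cpt1a was at 0.085 after rescaling to totals, 0.13 in batch A, 0.029 with only the 2 groups and 0.059 in the authors' deposited table. Leaving out single libraries gave -0.23 to 0.021 for Creb3l3 and -0.92 to 0.69 for Fgf21 with age, and -0.25 to 0.090 for Cpt1a with the transgene. The causes were not tested.

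With the replicate number as a block, 8 members were called with the transgene, 6 against old wild type and 0 with age, and Fgf21 with age was at 0.11. The pairing had no support in the labels, and same-numbered libraries correlated from -0.32 to 0.38.

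Depth is not known from normalized counts, so for low genes such as Fgf21 and Acot3 no counting error can be given. The 2 females in each wild type group and 1 in the transgenic group limit what can be said of sex.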

Other observations

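Several members differed between batches before any comparison of groups. In young wild type males, 2 per batch, the mean of batch B over that of batch A was 6.72 for Etfb, 6.71 for Acaa1a and 4.91 for Acadvl, and it was 0.0604 for Pdk4, 0.279 for Acot1 and 0.311 for Ppargc1a. Of the 40 members, 4 (10%) were above 3-fold in batch B, as were 13% of 14487 genes tested, and 4 (10%) were below by the same factor, as were 11.4%. Kit, site and batch cannot be told apart.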
